A study of Mus musculus with 12 samples.

Results

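Genes of the hypoxia-inducible factor (HIF) pathway were followed in the livers of iron-overloaded mice. The 10 genes were chosen by name for their known place in the pathway, out of 55414 genes in the count table. Earlier results of these data were known when they were chosen. Hif1a and Epas1 encode HIF-1alpha and HIF-2alpha, Egln1 and Egln3 encode the HIF prolyl hydroxylases PHD2 and PHD3, and Vegfa, Adm, Bnip3, Ankrd37, Pfkfb3 and Ndrg1 are known HIF target genes. All 10 genes were found in the table, and 9 of them passed edgeR's filter on low counts, as 13857 of all genes did, so that Ankrd37 was left untested.

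Female C57BL/6J mice of 8 to 12 weeks were given iron sulfate (FeSO4, 300 mg/kg) or 0.9% NaCl intraperitoneally. After 6 h came a second injection by the same route, either 10 mg/kg dexamethasone (DEX, a synthetic glucocorticoid) or PBS. Livers were collected 2 h later, 8 h after the start, and polyadenylated RNA of the whole liver was sequenced. This gave 4 groups of 3 mice, written as first and second injection: NaCl/PBS, NaCl/DEX, FeSO4/PBS and FeSO4/DEX. All mice were of the same inbred strain and carried no engineered allele, every mouse received both injections, and a single time point was taken.

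Cells judge their oxygen supply partly through the HIF pathway. With oxygen present, prolyl hydroxylases, which need oxygen, ferrous iron and 2-oxoglutarate, mark the HIF alpha subunits, and the von Hippel-Lindau (VHL) ubiquitin ligase then has them degraded. When hydroxylation stops, the alpha subunits pair with ARNT, bind the core sequence ACGTG or GCGTG in DNA, and raise genes for glycolysis, blood vessel growth, mitophagy and the hydroxylases themselves. This control acts mostly on the protein, and RNA counts say nothing of protein level or hydroxylation.

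Between 16335651 and 23827340 reads per mouse fell on genes, and the edgeR TMM scaling factors were 1.02 to 1.16 in NaCl mice and 0.871 to 0.952 in FeSO4 mice. Mice of 1 group differed by 18.3 to 89.5 in chi-square per gene, far above sampling noise, with FeSO4/PBS mouse 1 standing farthest from its group. Heme oxygenase Hmox1 rose after FeSO4 by an LFC (log2 fold change) of 6.02, and the glucocorticoid receptor target Fkbp5 rose after DEX in NaCl mice by 2.24. Liver tissue was recognisable in all 12 mice, since the 9 matched hepatocyte markers summed to between 2290063 and 3297683 normalized counts. This sum ran from 2290063 to 2659165 in NaCl/PBS and from 2851831 to 3248598 in FeSO4/PBS mice, without overlap. Markers were also compared one by one in FeSO4/PBS against NaCl/PBS livers. Higher and lower stand for an edgeR FDR of 0.05 or less, which 27.2% of all tested genes met as higher and 27.3% as lower. Of the 9 hepatocyte markers 3 were higher and 0 lower. Of 10 macrophage markers 8 were lower and 0 higher, and their sum ran from 10234 to 11656 in NaCl/PBS and from 5507 to 6197 in FeSO4/PBS mice. Of the 7 tested of 10 neutrophil markers 6 were higher, and the sum of all 10 went from between 122 and 299 to between 814 and 969.7, with 1 marker at 0 in all NaCl/PBS mice. Endothelial marker sums overlapped, at 7903 to 9066 and 7418 to 9611, with 2 of 10 markers higher and 4 lower. Stellate cell marker sums ran from 6554 to 6849 and from 7717 to 10342, with 3 of 10 higher and 2 lower. What part these cells had in the changes of HIF pathway genes was not tested, and in whole liver fewer cells of a type and less RNA per cell cannot be told apart.

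The DNA next to the start of these genes was read because HIF recognises a short core. In the 250 bases upstream of the Ensembl canonical start (GENCODE vM39, GRCm39), the letters ACGTG or GCGTG, sought on both strands, occurred in 8 of the 10 genes. They also occurred in 50.4% of the promoters of 13818 tested genes, with ACGTG in 20.6% and GCGTG in 38.9%, and each of these cores was found in 5 of the 10 genes. Counting both strands, Bnip3 held 5 matches, Ndrg1 and Ankrd37 held 3 each, Hif1a, Egln1 and Adm 2 each, and Epas1 and Egln3 1 each, while Vegfa and Pfkfb3 held 0. A palindrome such as CACGTG holds 2 overlapping matches and was counted as 2. The half-site AGAACA of the glucocorticoid receptor, present in 12% of promoters, occurred in 0 of the 10. A match is a stretch of letters and not evidence of binding, and no match covers this window alone. The following 5 sequences, 5′ to 3′ on the gene's strand with matched letters in capitals, are the promoters of Hif1a as the oxygen-regulated subunit, of Bnip3 and Adm as targets that rose after either injection, of Pfkfb3 as the target with the largest change, and of Vegfa as the target that fell. They lie at chr12:73954320-73954569 (plus strand), chr7:138511254-138511503 (minus), chr7:110226608-110226857 (plus), chr2:11507418-11507667 (minus) and chr17:46343310-46343559 (minus).
Hif1a: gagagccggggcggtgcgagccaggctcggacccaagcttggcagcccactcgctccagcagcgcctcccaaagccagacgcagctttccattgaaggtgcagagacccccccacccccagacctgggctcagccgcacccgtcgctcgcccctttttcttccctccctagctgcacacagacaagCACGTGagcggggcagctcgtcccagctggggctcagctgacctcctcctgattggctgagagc
Bnip3: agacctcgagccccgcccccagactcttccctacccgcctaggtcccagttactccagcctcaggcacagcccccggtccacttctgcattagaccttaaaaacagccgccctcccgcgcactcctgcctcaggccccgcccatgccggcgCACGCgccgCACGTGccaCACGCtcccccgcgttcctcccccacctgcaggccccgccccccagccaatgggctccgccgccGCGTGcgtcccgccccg
Adm: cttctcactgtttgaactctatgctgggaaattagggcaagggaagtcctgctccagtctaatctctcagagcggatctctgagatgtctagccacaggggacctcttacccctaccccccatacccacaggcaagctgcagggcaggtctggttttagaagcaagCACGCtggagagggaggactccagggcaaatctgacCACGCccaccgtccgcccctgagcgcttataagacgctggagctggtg
Pfkfb3: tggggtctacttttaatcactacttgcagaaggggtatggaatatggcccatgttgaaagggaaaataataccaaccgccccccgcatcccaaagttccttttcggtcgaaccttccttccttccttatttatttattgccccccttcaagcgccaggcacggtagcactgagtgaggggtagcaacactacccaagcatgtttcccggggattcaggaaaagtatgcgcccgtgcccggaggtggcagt
Vegfa: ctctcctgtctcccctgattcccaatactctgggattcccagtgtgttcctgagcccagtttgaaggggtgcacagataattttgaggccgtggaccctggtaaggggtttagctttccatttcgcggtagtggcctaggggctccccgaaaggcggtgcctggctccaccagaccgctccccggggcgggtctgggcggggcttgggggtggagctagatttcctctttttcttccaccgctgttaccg
The matches of Bnip3 began 17 to 99 bases upstream of the start, those of Hif1a 63 and 64, and those of Adm 48 and 84.

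The first comparison asked how FeSO4 changed these genes in mice without DEX. In FeSO4/PBS against NaCl/PBS mice, both alpha subunits rose, neither prolyl hydroxylase passed the test, and of the 5 tested targets 4 rose and Vegfa fell. In all, 6 of the 9 tested genes were higher and 1 was lower at an edgeR FDR of 0.05 or less, where 27.2% of all tested genes were higher and 27.3% lower. The median LFC of the 9 genes was 1.11, and that of all tested genes was -0.02. For 7 of the 9 genes the normalized counts of both groups did not overlap, as was so for 60% of all tested genes. With an LFC beyond 1 asked in addition, Hif1a, Epas1, Adm, Pfkfb3 and Ndrg1 remained higher, 5 of 9, and 0 lower, where 12.5% of all tested genes were higher and 14.7% lower. The normalized counts quoted per mouse are TMM-scaled reads, in the order of mice 1, 2 and 3.

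**Figure D1:**
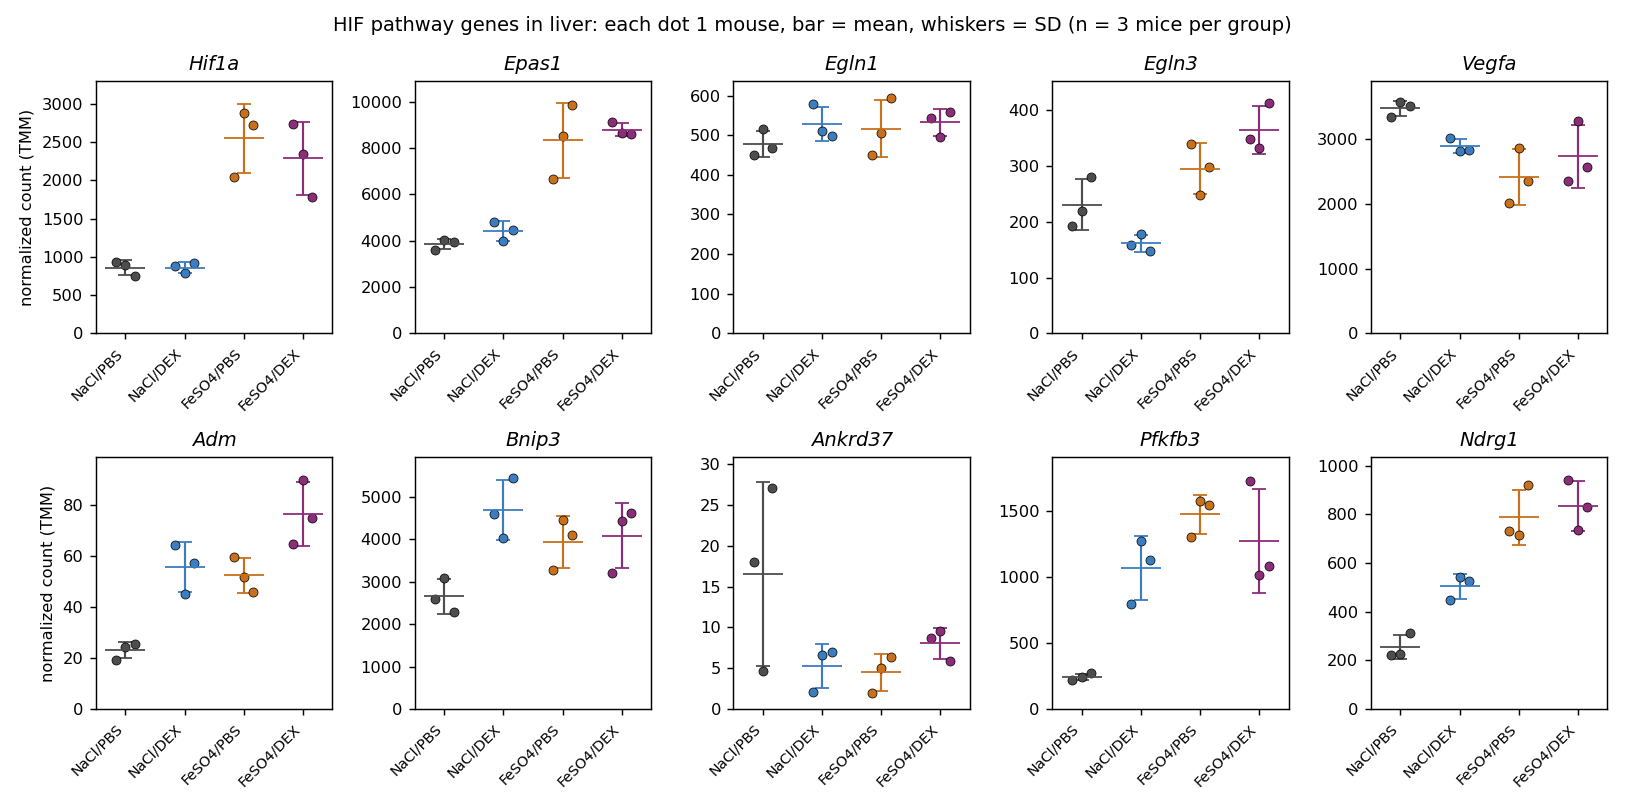
Normalized counts (TMM-scaled reads, linear axes from 0) of the 10 HIF pathway genes in the 4 groups, with each dot 1 mouse, the bar the mean and the whiskers the SD (n = 3). Hif1a and Epas1 were high in both FeSO4 groups, Pfkfb3 was low in the NaCl/PBS mice alone, and Egln1 was level across the groups.

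Hif1a (ENSMUSG00000021109, chromosome 12 from 73948149 to 73996321, plus strand) encodes the alpha subunit that drives much of the acute response to low oxygen. It had 927, 899.5 and 744 normalized counts in NaCl/PBS mice and 2039, 2885 and 2722 in FeSO4/PBS mice. Every FeSO4/PBS mouse lay above every NaCl/PBS mouse, mouse 1 being the lowest of the FeSO4/PBS mice. The LFC was 1.57 (FDR 3.89e-06 by edgeR, SE 0.17), a 2.97-fold rise, and lay between 1.48 and 1.71 in the 12 fits that each omitted 1 mouse. In the mice given DEX second, Hif1a went from 881, 783 and 919 without FeSO4 to 2741, 2338 and 1788 with it, again without overlap, and the LFC was 1.41 (FDR 1.55e-05 by edgeR, SE 0.17). The antisense gene Gm15283, which shares 695 exon bases with Hif1a, had 0 to 3 reads in any mouse.

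Epas1 (ENSMUSG00000024140, chromosome 17 from 87061087 to 87140838, plus strand) encodes HIF-2alpha, the subunit known for erythropoietin, iron and lipid genes in liver. Its counts were 3619, 4039 and 3959 in NaCl/PBS mice and 6647, 8501 and 9871 in FeSO4/PBS mice, which gave an LFC of 1.11 (FDR 1.45e-05 by edgeR, SE 0.14). In NaCl/DEX and FeSO4/DEX mice they were 4812, 3990.3 and 4456 against 9120.0, 8639 and 8607, an LFC of 0.99 (FDR 5.56e-05 by edgeR, SE 0.14). The groups did not overlap in either comparison, and Epas1 stayed called with any 1 mouse left out.

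Because both subunits are counted in the same library, their ratio does not depend on scaling. Reads on Hif1a per read on Epas1 were 0.256, 0.223 and 0.188 in NaCl/PBS mice and 0.307, 0.339 and 0.276 in FeSO4/PBS mice. In the NaCl/DEX mice the ratio was 0.183, 0.196 and 0.206, and in the FeSO4/DEX mice 0.301, 0.271 and 0.208. The 3 FeSO4/PBS mice lay above all 6 NaCl mice, while FeSO4/DEX mouse 3 lay among them. On the log2 scale the ratio was -1.83 ± 0.24 (SD, n = 6) with FeSO4 and -2.27 ± 0.18 (SD, n = 6) without, a difference of 0.43 (exact two-sided permutation p = 0.00866). Within the mice given PBS second the difference was 0.47 and within those given DEX second 0.40, each with an exact permutation p of 0.1, the smallest that 3 mice against 3 allow. 

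The prolyl hydroxylases gave no call after FeSO4 in mice without DEX. Egln1 (ENSMUSG00000031987, chromosome 8 from 125635308 to 125676865, minus strand) encodes PHD2, the main oxygen sensor of most cells, and had 450.3, 515 and 467 counts in NaCl/PBS mice and 449.6, 506 and 593 in FeSO4/PBS mice. These values overlapped, and the LFC was 0.11 (FDR 0.458 by edgeR, SE 0.12). It stayed near that level in NaCl/DEX mice (578, 509.6 and 497) and in FeSO4/DEX mice (543, 495 and 559), the LFC between these groups being 0.01 (FDR 0.946 by edgeR, SE 0.12). Over all 12 mice Egln1 ranged from 449.6 to 593, and of the 9 tested genes it deviated least from its own mean.

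Egln3 (ENSMUSG00000035105, chromosome 12 from 54225767 to 54250673, minus strand) encodes PHD3, a hydroxylase that is itself a HIF target. It had 192, 219 and 280.2 counts in NaCl/PBS mice and 339.7, 248 and 297 in FeSO4/PBS mice. The groups overlapped, with an LFC of 0.36 (FDR 0.0815 by edgeR, SE 0.17), although the gene was called without NaCl/PBS mouse 3 (LFC 0.52, edgeR FDR 0.0251) and without FeSO4/PBS mouse 2 (LFC 0.47, edgeR FDR 0.0357). Among the mice given DEX second it went from 158, 178 and 148 to 347, 332 and 413. All 3 FeSO4/DEX mice lay above all 3 NaCl/DEX mice, and the LFC was 1.17 (FDR 8.78e-05 by edgeR, SE 0.17). Between the NaCl groups it was lower with DEX, without overlap but not called, at an LFC of -0.51 (FDR 0.0605 by edgeR, SE 0.17), and the difference between both DEX responses was 0.82 (FDR 0.0586 by edgeR, SE 0.24).

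Among the vascular targets, Vegfa (ENSMUSG00000023951, chromosome 17 from 46327919 to 46343309, minus strand) encodes the growth factor of blood vessels VEGF-A and went down. Its counts were 3335, 3567 and 3498 in NaCl/PBS mice and 2012, 2859.6 and 2348 in FeSO4/PBS mice, with every FeSO4/PBS mouse below every NaCl/PBS mouse. The LFC was -0.53 (FDR 0.00597 by edgeR, SE 0.14), or 0.694 times the NaCl/PBS level, and it stayed called with any 1 mouse left out. With DEX given second the counts overlapped, at 3009, 2812 and 2827 in NaCl/DEX and 2345, 3271 and 2569.5 in FeSO4/DEX mice, with an LFC of -0.08 (FDR 0.681 by edgeR, SE 0.14).

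Adm (ENSMUSG00000030790, chromosome 7 from 110226858 to 110229027, plus strand) encodes adrenomedullin, a peptide that widens blood vessels, and was low throughout. It had 19.4, 24.3 and 25.4 counts in NaCl/PBS mice and 59.5, 51.9 and 45.9 in FeSO4/PBS mice. The LFC was 1.19 (FDR 0.00109 by edgeR, SE 0.25), with no overlap between the groups. In NaCl/DEX mice it had 64.4, 45.1 and 57.4 counts and in FeSO4/DEX mice 64.8, 89.7 and 74.9. These did not overlap either, by a narrow margin, and the LFC of 0.45 (FDR 0.128 by edgeR, SE 0.23) was not called.

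Bnip3 (ENSMUSG00000078566, chromosome 7 from 138490690 to 138511253, minus strand) encodes a protein of the outer mitochondrial membrane that takes part in mitophagy. Counts were 2594, 3089 and 2289.6 in NaCl/PBS mice and 3275, 4457 and 4098 in FeSO4/PBS mice, an LFC of 0.57 (FDR 0.0117 by edgeR, SE 0.17). The lowest FeSO4/PBS mouse lay only slightly above the highest NaCl/PBS mouse. This call was lost without NaCl/PBS mouse 3 (LFC 0.47, edgeR FDR 0.0573) and with scaling by library size alone (LFC 0.25, edgeR FDR 0.195). In NaCl/DEX mice the counts were 4593, 4039 and 5453 and in FeSO4/DEX mice 3210.1, 4426 and 4627, which overlapped, with an LFC of -0.20 (FDR 0.365 by edgeR, SE 0.17).

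Pfkfb3 (ENSMUSG00000026773, chromosome 2 from 11476244 to 11558888, minus strand) encodes an enzyme that makes fructose 2,6-bisphosphate, an activator of glycolysis. Its LFC after FeSO4 was the largest of the 9 tested genes. It had 224, 241 and 273 counts in NaCl/PBS mice and 1308, 1579.8 and 1549.5 in FeSO4/PBS mice, far apart in every mouse. The LFC was 2.59 (FDR 4.23e-07 by edgeR, SE 0.21), a 6.01-fold rise, and lay between 2.53 and 2.67 when single mice were omitted. Among the mice given DEX second the counts overlapped, at 799.7, 1277 and 1131 in NaCl/DEX and 1731, 1015 and 1088 in FeSO4/DEX mice. There the LFC was 0.26 (FDR 0.314 by edgeR, SE 0.20).

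Ndrg1 (ENSMUSG00000005125, chromosome 15 from 66801166 to 66841835, minus strand) encodes a stress-responsive protein that is widely used as a marker of hypoxia. Counts of 224, 227 and 314 in NaCl/PBS mice stood against 731, 714 and 919.5 in FeSO4/PBS mice, and the LFC was 1.63 (FDR 1.84e-06 by edgeR, SE 0.16). With DEX given second they were 447, 543 and 526 in NaCl/DEX and 941, 737 and 829.9 in FeSO4/DEX mice, with an LFC of 0.73 (FDR 0.00167 by edgeR, SE 0.15). Neither comparison showed overlap. The antisense genes Gm2895 and Gm17035 over Ndrg1 had 0 to 2 reads.

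Ankrd37, a HIF target of little-known function (ENSMUSG00000050914, chromosome 8 from 46449939 to 46458744, minus strand), was too low for the filter. It had 25, 5 and 32 reads in NaCl/PBS mice, 2, 7 and 7 in NaCl/DEX, 2, 5 and 5 in FeSO4/PBS and 9, 7 and 5 in FeSO4/DEX mice. NaCl/PBS mice 1 and 3 were high, and NaCl/PBS mouse 2 lay among the other groups. Without the filter, the LFC after FeSO4 was -1.90 (SE 0.69, edgeR FDR 0.0217). In the usual fit with single mice omitted, where the gene passed the filter in 10 of 12, it was not called without FeSO4/PBS mouse 1 (LFC -1.53, edgeR FDR 0.0911) or FeSO4/PBS mouse 2 (LFC -2.02, edgeR FDR 0.0524). The gene failed the filter without NaCl/PBS mouse 1 or mouse 3, so that no tested fit left out either of the high mice. Exons of Ankrd37 overlap those of Ufsp2 on the other strand by 1156 bases, and Ufsp2 had 773 to 1007 reads in NaCl/PBS and 367 to 527 in FeSO4/PBS mice. Which strand column the counts came from is not given in the sources used here. Whether reads on the shared bases were counted, left out or given to the other gene is therefore not known.

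The effect of FeSO4 was also taken between FeSO4/DEX and NaCl/DEX mice, which share no mouse with the first comparison. Of the 9 tested genes Hif1a, Epas1, Egln3 and Ndrg1 were higher and 0 lower, where 22.4% of all tested genes were higher and 20.9% lower. The median LFC was 0.45 against 0.01 for all tested genes, and 5 of 9 genes did not overlap between the groups, against 55.9% of all. With an LFC beyond 1 these were Hif1a and Egln3, 2 of 9, and 0 lower, against 10.6% of all higher and 9.83% lower. In both FeSO4 comparisons Hif1a, Epas1 and Ndrg1 were higher, 3 of 9, where 17.7% of all tested genes were higher in both.

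The DEX comparison in mice without iron asked how the glucocorticoid alone changed these genes. In NaCl/DEX against NaCl/PBS mice Adm, Bnip3, Pfkfb3 and Ndrg1 rose, all of them targets, and neither subunit nor either hydroxylase was called. These 4 of 9 were higher and 0 lower, where 6.5% of all tested genes were higher and 7.15% lower, and 6 of 9 did not overlap between the groups against 37.9% of all. With an LFC beyond 1, Adm and Pfkfb3 were higher and 0 lower, against 2.97% and 3.41% of all. The median LFC of the 9 genes was 0.19. Pfkfb3 rose 4.35-fold, with an LFC of 2.12 (FDR 1.87e-05 by edgeR, SE 0.21). For Adm the LFC was 1.27 (FDR 0.00324 by edgeR, SE 0.25), for Bnip3 0.82 (FDR 0.00518 by edgeR, SE 0.17) and for Ndrg1 0.99 (FDR 0.000751 by edgeR, SE 0.16). By contrast Hif1a had an LFC of 0.01 (FDR 0.987 by edgeR, SE 0.17) and Epas1 of 0.19 (FDR 0.407 by edgeR, SE 0.13). Vegfa was lower in all 3 NaCl/DEX mice than in any NaCl/PBS mouse, but its LFC of -0.27 (FDR 0.251 by edgeR, SE 0.14) was not called.

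The FeSO4 and the DEX comparison that start from NaCl/PBS mice share those 3 mice and are not independent. Side by side, the LFCs after FeSO4 and after DEX were 2.59 and 2.12 for Pfkfb3, 1.19 and 1.27 for Adm, 0.57 and 0.82 for Bnip3, and 1.63 and 0.99 for Ndrg1. For Hif1a they were 1.57 and 0.01, and for Epas1 1.11 and 0.19.

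**Figure D2:**
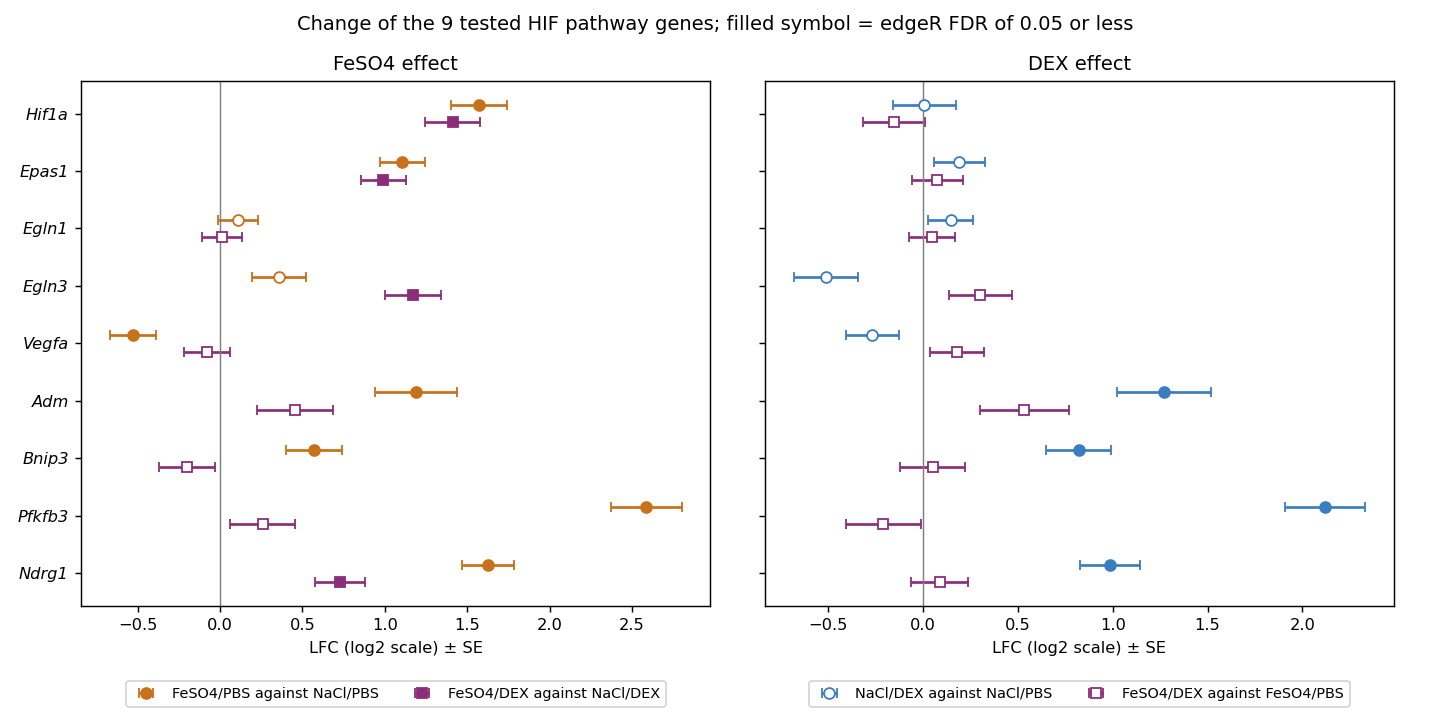
LFC (log2 scale, with SE) of the 9 tested HIF pathway genes after FeSO4 (left, with PBS or DEX given second) and after DEX (right, in NaCl or FeSO4 mice), with filled symbols for an edgeR FDR of 0.05 or less. Pfkfb3 moved from 2.59 to 0.26 between both FeSO4 comparisons, while Hif1a and Epas1 kept to 1.57 and 1.41 and to 1.11 and 0.99, and 0 symbols are filled for DEX in FeSO4 mice.

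After FeSO4, DEX gave no call among these genes. In FeSO4/DEX against FeSO4/PBS mice 0 of 9 genes were higher and 0 lower with edgeR, as for 0% of all tested genes, and DESeq2 called 0 of 9 too. At an unadjusted p under 0.05 there was 1, Adm, with an LFC of 0.53 (FDR 0.762 by edgeR, SE 0.23), and it was the 1 gene of 9 without overlap, against 9.3% of all tested genes. Pfkfb3 had an LFC of -0.21 (FDR 0.866 by edgeR, SE 0.20), Bnip3 of 0.05 (FDR 0.97 by edgeR, SE 0.17) and Ndrg1 of 0.09 (FDR 0.938 by edgeR, SE 0.15). The median of the 9 was 0.08.

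Whether DEX acted differently in FeSO4 mice was tested as the difference between both DEX responses. Pfkfb3 and Ndrg1 had a smaller DEX response in FeSO4 mice than in NaCl mice, 2 of 9 lower and 0 higher, where 3.2% of all tested genes were lower and 2.99% higher. For Pfkfb3 the difference was -2.33 (FDR 0.000347 by edgeR, SE 0.29), and it was called with any 1 mouse left out. With a difference beyond 1 asked in addition, Pfkfb3 alone remained, where 2% of all were lower and 2.14% higher. For Ndrg1 it was -0.90 (FDR 0.0262 by edgeR, SE 0.22), and it was called in 5 of 12 fits with 1 mouse left out, where the edgeR FDR ran from 0.0117 to 0.0738. The call was lost without NaCl/PBS mouse 1 or 2, NaCl/DEX mouse 2 or 3, FeSO4/PBS mouse 3, or FeSO4/DEX mouse 2 or 3. Unadjusted, 6 of 9 had a p under 0.05, and DESeq2 called 4, in both directions in each case. How many of all tested genes met these limits was not counted. Egln3 and Vegfa had differences above 0, of 0.82 (FDR 0.0586 by edgeR, SE 0.24) and 0.45 (FDR 0.224 by edgeR, SE 0.20), both uncalled. Bnip3 had a difference of -0.77 (FDR 0.0781 by edgeR, SE 0.24) and Adm of -0.74 (FDR 0.239 by edgeR, SE 0.34), both uncalled, and that of Hif1a was -0.16 (FDR 0.752 by edgeR, SE 0.23). The FeSO4/PBS mice, from which the second DEX response is counted, already stood at 1479 normalized counts of Pfkfb3 on average, against 1069 in NaCl/DEX mice and 246 in NaCl/PBS mice.

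Levels of different genes were compared per kb of exon. The length took in all annotated exons of a gene, whether or not liver uses them, so that the order depends in part on the annotation. In NaCl/PBS mice Vegfa led with 806 ± 27.7 normalized counts per kb (SD, n = 3), followed by Epas1 with 685 ± 39.5 and Bnip3 with 615 ± 93.5, and the mice overlapped between Epas1 and Bnip3. Hif1a, at 103 ± 11.8, was followed by Egln3 at 85.7 ± 16.8, whose mice overlapped with it, and by Egln1 at 53.3 ± 3.76. Ndrg1 (34.1 ± 6.81) and Pfkfb3 (30.5 ± 3.03) overlapped, as did Adm (14.1 ± 1.95) and Ankrd37 (8.85 ± 6.01) at the low end. In FeSO4/PBS mice the order began with Epas1 at 1476 ± 286, Bnip3 at 913 ± 140.3 and Vegfa at 559.8 ± 99.3, which were apart in every mouse. Hif1a (305 ± 53.8) and Pfkfb3 (183 ± 18.4) came next, and Pfkfb3 now stood above Egln3 (109.7 ± 17.0), Ndrg1 (105 ± 15.3) and Egln1 (57.6 ± 8.07). Bnip3 led in NaCl/DEX mice with 1087 ± 165, and Epas1 led in FeSO4/DEX mice with 1556 ± 50.9.

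**Figure D3:**
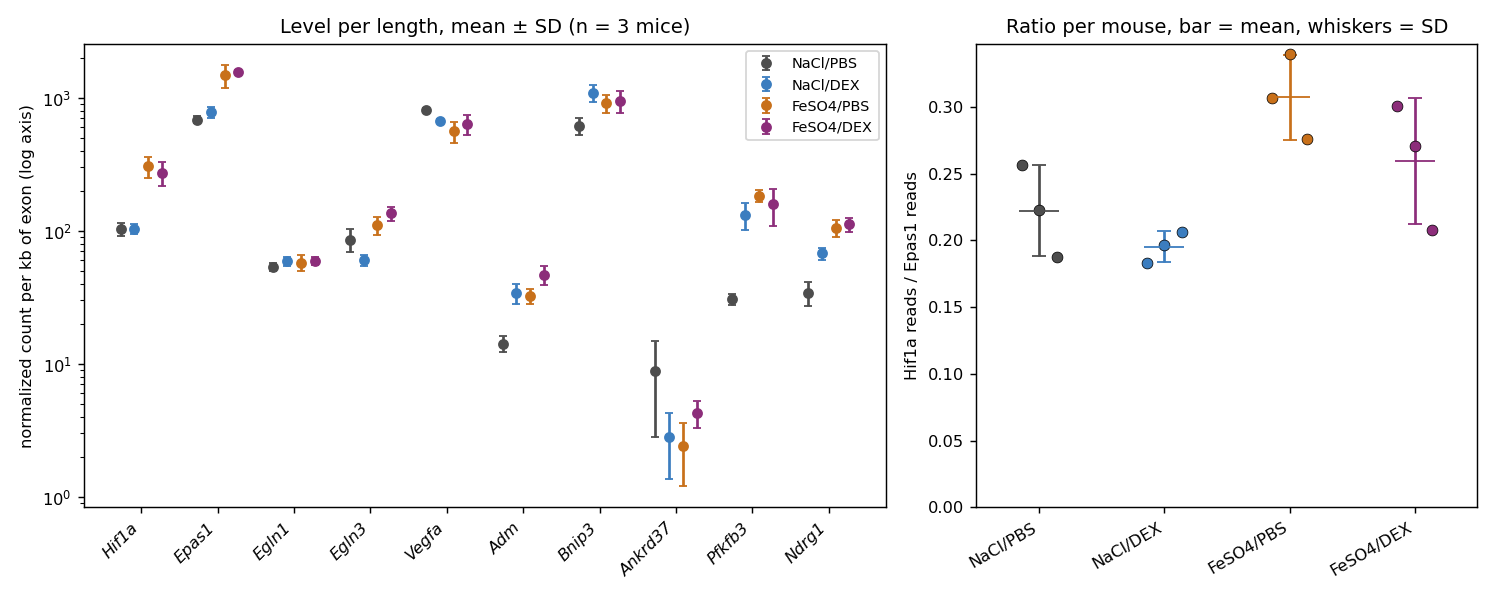
Left, normalized counts per kb of exon (log axis, mean and SD of 3 mice) of the 10 genes in each group, and right, reads on Hif1a per read on Epas1 in each mouse (linear axis from 0, bar for the mean, whiskers for the SD). Epas1, Bnip3 and Vegfa stood above the other 7 genes in every group, and the ratio was above all NaCl mice in the 3 FeSO4/PBS mice.

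Likeness of pattern was measured as the root mean square difference in log2 CPM over the 12 libraries, each gene centred on its own mean, among 12758 tested genes with a symbol other than a Gm or Rik clone name. Nearest to Hif1a was Ptpn23 (0.135), nearest to Epas1 was Usp36 (0.108), and nearest to Pfkfb3 was Insc (0.292). For Ndrg1 it was Ppp2r2d (0.176), for Bnip3 Ei24 (0.137), for Adm Sdc4 (0.190), for Egln3 Odf2 (0.157) and for Egln1 Atp6v0a2 (0.0764). The 12 libraries share groups, scaling and depth, so that these are descriptions. Among the 9 genes themselves Hif1a and Epas1 lay closest, at 0.291.

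The other 69 HIF pathway genes of the list, written with earlier results known, were counted in the same fit, and 60 of them were tested. After FeSO4 with PBS 30 were higher and 10 lower, where 27.2% and 27.3% of all tested genes were, with a median LFC of 0.51. In FeSO4/DEX against NaCl/DEX mice 22 were higher and 9 lower, with a median of 0.19, against 22.4% and 20.9% of all tested genes. In both FeSO4 comparisons 18 were higher and 6 lower, against 17.7% and 16.3% of all. DEX in NaCl mice gave 11 higher and 5 lower, against 6.5% and 7.15% of all. In FeSO4 mice DEX gave 0 calls with edgeR, 2 genes at an unadjusted p under 0.05 and 1 call, of Ddit4, with DESeq2. Ddit4 ran from 708 to 1138 normalized counts in FeSO4/PBS and from 1612 to 3196 in FeSO4/DEX mice. These did not overlap, as for 9.3% of all tested genes. With single mice omitted its LFC there was 1.08 to 1.59, called by edgeR in 1 of 12 fits. Erythropoietin, Epo, had 0 reads in every mouse, which allows up to 3 reads per library by counting error alone.

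Of the partners of the alpha subunits, Arnt, which encodes the shared beta subunit, rose from 860.2, 969 and 716 to 1173, 1134 and 1237 normalized counts after FeSO4, with an LFC of 0.48 (FDR 0.00385 by edgeR, SE 0.12), and in mice given DEX by 0.80 (FDR 0.000125 by edgeR, SE 0.12). The first call was lost with scaling by library size alone (LFC 0.16, edgeR FDR 0.272). Hif3a, which encodes another alpha subunit with inhibitory forms, was near the detection limit, with 4, 7 and 0 reads in NaCl/PBS, 15, 18 and 9 in FeSO4/PBS, 24, 33 and 20 in NaCl/DEX and 6, 11 and 20 in FeSO4/DEX mice. It was higher after FeSO4 with PBS, by 2.26 (FDR 0.0148 by edgeR, SE 0.71), and after DEX with NaCl, by 3.02 (FDR 0.00821 by edgeR, SE 0.68). With single mice omitted these LFCs ran from 1.69 to 3.20 and from 2.47 to 3.97 and stayed called, both being highest without NaCl/PBS mouse 2 and lowest without NaCl/PBS mouse 3. In FeSO4/DEX against NaCl/DEX mice the LFC was -0.81 (FDR 0.276 by edgeR, SE 0.58), not called. Arnt2 had 0 to 2 reads and was not tested.

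The remaining hydroxylases and the degradation machinery moved in different directions. Egln2, encoding PHD1, rose after FeSO4 from 1152, 998 and 1122 to 1910.1, 2394 and 1754, an LFC of 0.89 (FDR 0.00011 by edgeR, SE 0.14), but by an uncalled 0.26 (FDR 0.143 by edgeR, SE 0.14) in mice given DEX. With DEX the Egln2 mean was 1607 normalized counts without FeSO4 and 1923 with it. With PBS these means were 1091 and 2019. After DEX in NaCl mice its LFC ran from 0.51 to 0.61 with single mice omitted, called in 10 of 12 fits. Hif1an, encoding the asparagine hydroxylase FIH, was not called, at LFCs of 0.12 (edgeR FDR 0.545) and -0.35 (edgeR FDR 0.0819). Vhl, the recognition subunit of the ligase, fell in both comparisons. It had 179, 218 and 155 counts in NaCl/PBS and 96.8, 64.1 and 85.4 in FeSO4/PBS mice, an LFC of -1.16 (FDR 0.000204 by edgeR, SE 0.20), and 159.9, 166 and 172 against 56.1, 70.7 and 78.5 with DEX, an LFC of -1.29 (FDR 0.000161 by edgeR, SE 0.20). The groups did not overlap in either. Other parts of the ligase went up or stayed, with Rbx1 at 0.74 (edgeR FDR 0.000219), Eloc at 0.34 (edgeR FDR 0.0103), Elob at 0.41 (edgeR FDR 0.0428) and Cul2, uncalled, at 0.17 after FeSO4 with PBS. The calls of Elob and Eloc were lost with scaling by library size alone, at LFCs of 0.09 and 0.02. With single mice omitted Elob was called in 6 of 12 fits, the LFC running from 0.22 to 0.51 and the edgeR FDR up to 0.208. Its call was lost without any 1 of the NaCl/PBS mice, FeSO4/PBS mouse 1, NaCl/DEX mouse 2 or FeSO4/DEX mouse 3. Eloc was called in 11 of 12, the exception being without NaCl/PBS mouse 3 (edgeR FDR 0.0569). With DEX given second Rbx1 was higher, at 0.45 (FDR 0.00972 by edgeR, SE 0.12), a call lost without FeSO4/DEX mouse 2 (edgeR FDR 0.0566), and neither Elob (0.33) nor Eloc (0.13) was called. Siah2, a ligase that acts on the hydroxylases, fell after FeSO4 with PBS, at an LFC of -0.86 (FDR 0.000977 by edgeR, SE 0.18), and was not called in mice given DEX, where the groups overlapped, at -0.34 (FDR 0.141 by edgeR, SE 0.18).

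Of the coactivators, Crebbp rose after FeSO4 by 0.55 (FDR 0.00181 by edgeR, SE 0.12) with PBS and by 0.49 (FDR 0.00535 by edgeR, SE 0.12) with DEX. The first call was lost when libraries were scaled by size alone, at 0.23 (edgeR FDR 0.126). Cited2, which competes with HIF for them, rose after FeSO4 with PBS by 1.01 (FDR 0.000639 by edgeR, SE 0.20), and was not called with DEX, at 0.31 (FDR 0.219 by edgeR, SE 0.19). With DEX the Cited2 mean was 387 normalized counts without FeSO4 and 479 with it. With PBS these means were 231 and 467. After DEX in NaCl mice its LFC ran from 0.65 to 0.79 with single mice omitted, called in 8 of 12 fits. Ep300 went from 611, 695 and 703 to 1476, 1270.2 and 1294 counts after DEX in NaCl mice, an LFC of 1.01 (FDR 0.000579 by edgeR, SE 0.16). After DEX in FeSO4 mice it went from 476, 605 and 692 to 594, 483 and 722, and the difference between both DEX responses was -0.98 (FDR 0.0167 by edgeR, SE 0.22). In FeSO4/DEX against NaCl/DEX mice Ep300 was lower, at an LFC of -1.17 (FDR 4.83e-05 by edgeR, SE 0.16). After FeSO4 with PBS it was not called, at -0.18 (FDR 0.347 by edgeR, SE 0.16).

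Of the 54 further targets in the list 47 were tested, and after FeSO4 with PBS 22 were higher and 8 lower, against 27.2% and 27.3% of all tested genes, with a median LFC of 0.57. The largest rise was that of Hilpda, which encodes a lipid droplet protein that slows fat breakdown. It had 12.9, 36.5 and 30.5 counts in NaCl/PBS mice and 316, 1815 and 1018 in FeSO4/PBS mice, of which mouse 1 was the lowest. The LFC was 5.33 (FDR 2.94e-06 by edgeR, SE 0.55), and in mice given DEX, with 7, 16 and 15 reads in NaCl/DEX and 1078, 896 and 755 in FeSO4/DEX mice, 6.36 (FDR 2.48e-06 by edgeR, SE 0.61). The former lay between 4.67, without FeSO4/PBS mouse 2, and 5.77, without FeSO4/PBS mouse 1. Plin2, which coats lipid droplets, rose likewise, from 4195, 5212 and 4049 to 26679.7, 22149 and 26116, with LFCs of 2.48 (edgeR FDR 4.59e-07) and 2.87 (edgeR FDR 2.53e-07). Lox, encoding the collagen crosslinker lysyl oxidase, had 2, 0 and 10 reads in NaCl/PBS and 17, 33 and 30 in FeSO4/PBS mice. Its LFC was 3.11 (FDR 0.00238 by edgeR, SE 0.72), and lay between 2.60 and 4.99 when single mice were omitted, the highest being without NaCl/PBS mouse 3. The stress gene Ddit4 was, like Pfkfb3, called after FeSO4 with PBS and after DEX in NaCl mice but not after FeSO4 with DEX. Its LFCs were 3.19 and 4.93 in the former comparisons and -0.36 in the latter. Slc2a3, a glucose transporter, had LFCs of 2.03, 0.58 and 1.39 after FeSO4 with PBS, after FeSO4 with DEX and after DEX in NaCl mice. The second was not called, and the call of the third was lost without NaCl/PBS mouse 1, NaCl/DEX mouse 2 or NaCl/DEX mouse 3, at an edgeR FDR of 0.0562 to 0.0877.

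The targets listed under glycolysis also took in Gys1 and Ak4, which are not enzymes of glycolysis itself. Of 18 tested, 10 were higher and 3 lower after FeSO4 with PBS, where 27.2% and 27.3% of all tested genes were. The 3 lower were Gys1, Ak4 and Pfkl, the last at an LFC of -0.38 (edgeR FDR 0.00637). Pfkp, Aldoa and Eno1, at LFCs of 1.73, 1.58 and 1.14, were among the 10 higher. In mice given DEX second 8 were higher and 4 lower, against 22.4% and 20.9% of all. Gys1, encoding a glycogen synthase and low in reads, fell from 62, 48 and 56 to 14, 16 and 11 reads, an LFC of -1.61 (FDR 0.000248 by edgeR, SE 0.28), and the mitochondrial adenylate kinase gene Ak4 fell, at an LFC of -1.31 (FDR 2.49e-05 by edgeR, SE 0.17). Among vascular targets the VEGF receptor gene Kdr went from 1211, 1062 and 1306 in NaCl/PBS to 157, 402 and 412 in FeSO4/PBS mice, an LFC of -1.89 (FDR 0.000166 by edgeR, SE 0.31). In FeSO4/DEX against NaCl/DEX mice its LFC was -0.11 (FDR 0.801 by edgeR, SE 0.30), not called, and after DEX in NaCl mice it was lower, at -1.24 (FDR 0.0129 by edgeR, SE 0.30), a call that ended when NaCl/PBS mouse 3 (edgeR FDR 0.0501) or NaCl/DEX mouse 3 (edgeR FDR 0.0569) was omitted. The growth factor gene Pdgfb, with 53, 28 and 19 and 9, 8 and 3 reads, fell at an LFC of -1.89 (FDR 0.0101 by edgeR, SE 0.55), a call lost without NaCl/PBS mouse 1 (LFC -1.54, edgeR FDR 0.0575), and in mice given DEX its LFC was -1.60 (FDR 0.0591 by edgeR, SE 0.65), not called. Both are genes of endothelial cells, whose summed markers overlapped between NaCl/PBS and FeSO4/PBS mice (7903 to 9066 and 7418 to 9611 normalized counts). The single markers moved both ways, with 2 of 10 higher and 4 lower, and the part of these cells was not tested. Zfp395 fell, at LFCs of -1.52 (FDR 0.00192 by edgeR, SE 0.34) after FeSO4 and -1.83 (FDR 0.00272 by edgeR, SE 0.35) after DEX in NaCl mice, and had an uncalled 0.47 (FDR 0.299 by edgeR, SE 0.35) in FeSO4/DEX against NaCl/DEX mice.

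The targets of this paragraph were picked with their values known. Bhlhe40 and Tfrc had a called difference between both DEX responses. Bhlhe41 and Slc16a3 had a large called rise in FeSO4/DEX against NaCl/DEX mice. Bhlhe40 encodes a transcriptional repressor of the clock and of metabolism. It had 2432, 3201 and 2944 counts in NaCl/PBS mice, 1140.0, 1111 and 1680.4 in NaCl/DEX, 5326, 8297 and 6847 in FeSO4/PBS and 8710.1, 10138 and 7670.5 in FeSO4/DEX mice. It rose after FeSO4 both with PBS, at an LFC of 1.26 (FDR 9.60e-05 by edgeR, SE 0.19), and with DEX, at 2.75 (FDR 2.66e-07 by edgeR, SE 0.20), and fell after DEX in NaCl mice, at -1.12 (FDR 0.0013 by edgeR, SE 0.19). The related Bhlhe41 had 36, 33 and 34 reads in NaCl/PBS, 1, 4 and 5 in NaCl/DEX, 17, 66 and 79 in FeSO4/PBS and 35, 37 and 69 in FeSO4/DEX mice. It rose after FeSO4 with DEX, at an LFC of 4.00 (FDR 0.000331 by edgeR, SE 0.68), and its LFC with PBS, 1.10 (FDR 0.0782 by edgeR, SE 0.50), was not called, though it was called without FeSO4/PBS mouse 1 (LFC 1.56, edgeR FDR 0.00323). Tfrc, which encodes the transferrin receptor for iron uptake, had 351, 324 and 271 counts in NaCl/PBS, 1422, 668 and 1043 in NaCl/DEX, 476, 847 and 811 in FeSO4/PBS and 852, 833 and 761 in FeSO4/DEX mice. It rose after FeSO4 with PBS, at an LFC of 1.17 (FDR 0.0012 by edgeR, SE 0.25), and after DEX in NaCl mice, at 1.73 (FDR 0.000346 by edgeR, SE 0.25), and was not called after FeSO4 with DEX, at -0.36 (FDR 0.252 by edgeR, SE 0.24). Slc16a3, encoding the lactate exporter MCT4, rose in both FeSO4 comparisons, at LFCs of 1.98 (FDR 0.00246 by edgeR, SE 0.46) and 2.96 (FDR 0.000569 by edgeR, SE 0.54), from 10, 15 and 20 reads in NaCl/PBS to 23, 60 and 52 in FeSO4/PBS mice. The second LFC was 3.67 without NaCl/DEX mouse 3.

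**Figure D4:**
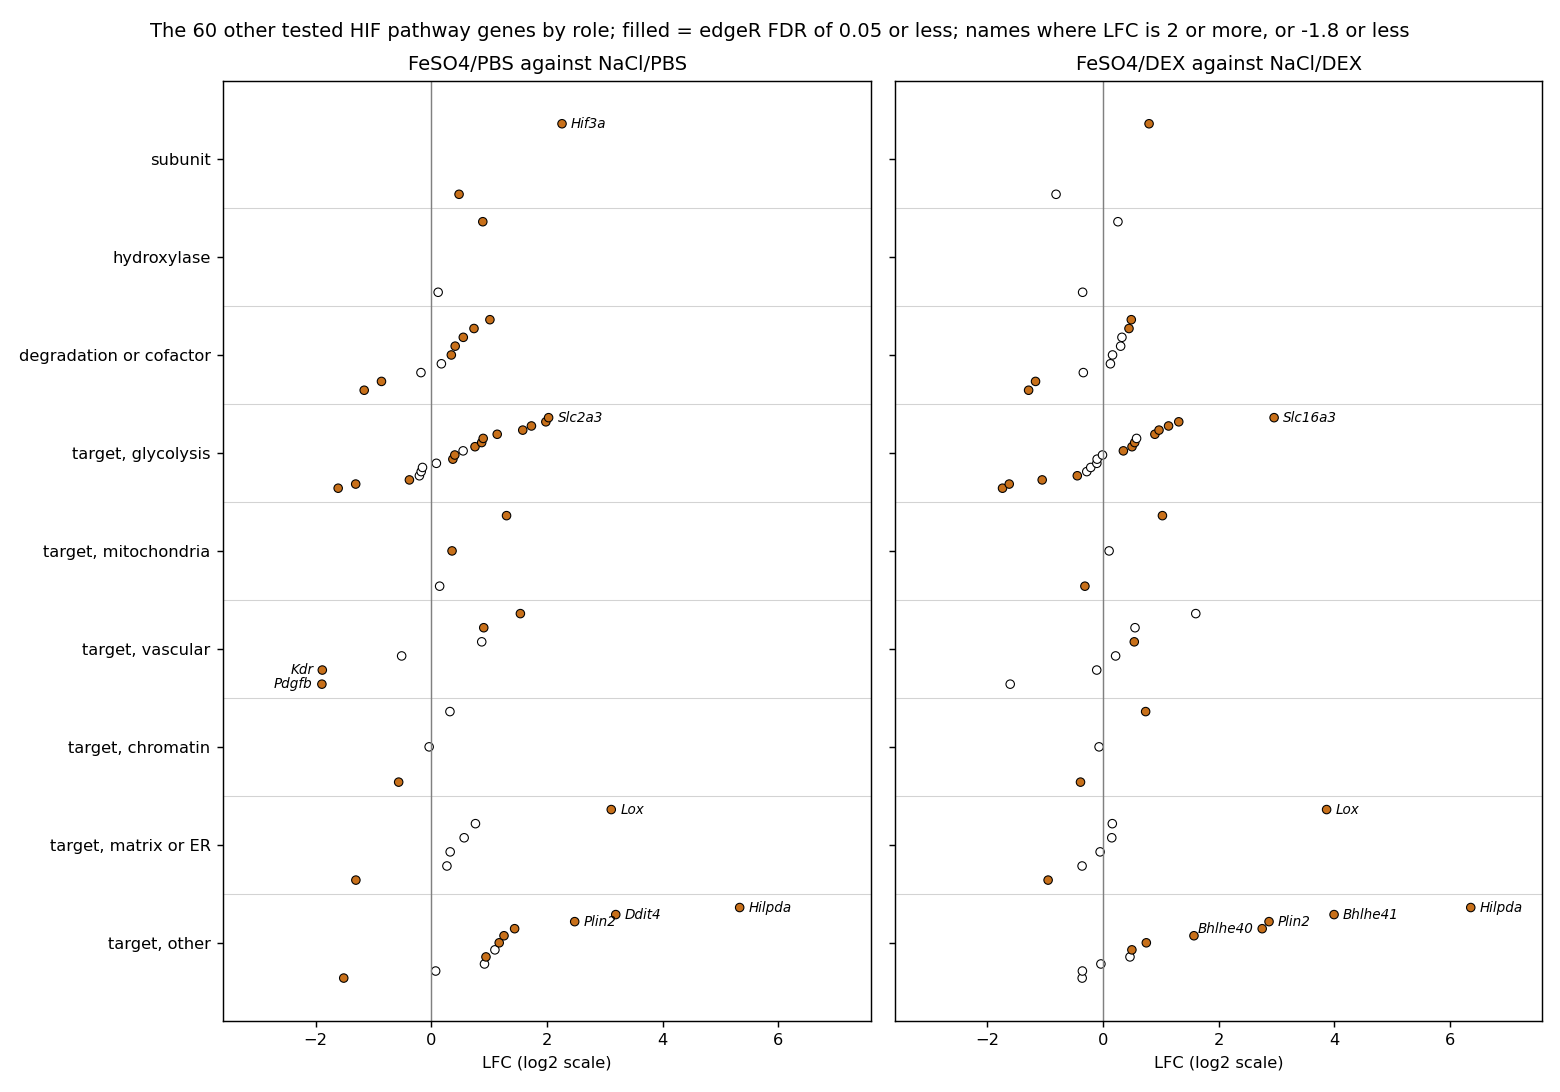
LFC (log2 scale) of the 60 other tested HIF pathway genes by role, after FeSO4 with PBS given second (left) and with DEX given second (right), each dot 1 gene and filled at an edgeR FDR of 0.05 or less. Hilpda stands farthest right in both panels, at 5.33 and 6.36, and Ddit4, at 3.19 on the left, is not among the rises on the right.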

How the data were processed

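RNAseq was made from whole liver of 12 female mice, 3 in each of 4 groups. The authors made stranded libraries from mRNA, read them single-end over 100 cycles, mapped to mm39 with STAR 2.7.10b and GENCODE v28 splice junctions, and counted per gene. Their deposited counts are whole, not normalized, and cover 55414 Ensembl genes. The strand column kept is not given in the sources used here. Symbols came from GENCODE vM39 for 54749 genes.

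The 10 genes, the list of 69 other HIF pathway genes and the marker lists were chosen with earlier results of these data known. All 12 libraries entered 1 edgeR 4.0.16 quasi-likelihood fit (R 4.3.3) with a mean per group, after filterByExpr and TMM scaling, and p-values were adjusted by Benjamini-Hochberg over 13857 genes. A gene was called at an edgeR FDR of 0.05 or less. The biological coefficient of variation was 0.169. Library totals ran from 16335651 to 23827340 reads, with a median of 19602514, and genes of few reads carry more counting error. On simulated data, 200 of 200 genes changed after FeSO4 were recovered among 13715 genes. How often changes of the sizes and read counts reported here would be recovered was not tested.

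All 10 genes were named. Of the other list, the named genes were all subunits, hydroxylases and degradation or cofactor genes, with the 5 largest rises and 5 largest falls among targets called after FeSO4 with PBS. Bhlhe40, Bhlhe41, Slc16a3 and Tfrc were added once their values were known. The ratio of reads was tested with an exact permutation test (scipy 1.17.1). Alternatives were DESeq2 1.42.0, its size factors, library size alone, a fit of the compared libraries alone, a block for the replicate number, no filter, 10 counts or more in every library, an LFC beyond 1 in addition, and each mouse omitted in turn. The replicate numbers of the labels were not used as pairs, since same-numbered mice correlated by -0.0752 to 0.129 in their deviations, over 0.1 in 2 of 12 pairs. Promoters were read from GRCm39 at the canonical starts. The gene nearest in pattern to Vegfa is not reported here.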

Additional observations from a re-analysis of the deposited data

Results flagged for a closer look

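The DEX response differed between NaCl and FeSO4 mice, by the edgeR test of that difference, in 2 of the 9 tested genes and 6 of the 60 other HIF pathway genes tested, where 2.99% of all tested genes were higher and 3.2% lower. Each value is the LFC after DEX in FeSO4 mice minus that in NaCl mice. It was -2.33 for Pfkfb3 (edgeR FDR 0.000347) and -0.90 for Ndrg1 (edgeR FDR 0.0262). Among the others it was -3.55 for Ddit4, -1.53 for Tfrc, -0.98 for Ep300, 1.50 for Bhlhe40, 1.78 for Kdr and 1.98 for Zfp395. With single mice omitted, Pfkfb3, Ddit4, Ep300 and Bhlhe40 were called in all 12 fits, Tfrc in 11, Zfp395 in 7, and Ndrg1 and Kdr in 5. No test for a single far mouse was run in groups of 3.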

How the results depend on the processing

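No called change of the 10 genes or of the other named genes reversed its direction under the alternatives run. In FeSO4/PBS against NaCl/PBS mice, the 10 genes held 2 lower calls with DESeq2 and without the filter, where Ankrd37 is tested, 0 with an LFC beyond 1 in addition, and 1 to 2 with single mice omitted. The LFC limit left 16 of the other genes higher there, and left 2 of the 10 genes and 10 of the others higher and 5 of the others lower in FeSO4/DEX against NaCl/DEX mice. Of all tested genes 12.5% met it as higher in the former comparison, and 10.6% as higher and 9.83% as lower in the latter. Scaling by library size alone, which moved the median LFC of all genes to -0.34 after FeSO4 with PBS, -0.18 after FeSO4 with DEX and -0.18 after DEX in NaCl mice, gave 14 of the others higher and 14 lower after FeSO4 with DEX. Of all 13857 tested genes this scaling gave 2151 higher and 4146 lower after FeSO4 with DEX. It also turned the split of all calls after FeSO4 with PBS from 3770 higher and 3783 lower to 2285 and 5829. After DEX in NaCl mice, the limit left 2 of the 10 and 7 of the others higher, library size alone gave 2 lower of the 10 (Egln3 and Vegfa), no filter 1, and single mice omitted 0 to 1 of the 10 and 3 to 5 of the others, with 3 without NaCl/PBS mouse 3 or NaCl/DEX mouse 3. Of all tested genes 2.97% met the limit as higher there, and library size alone gave 1776 lower of 13857. In FeSO4 mice DEX gave 1 higher call of the others with DESeq2 and without the filter, and 0 to 1 with single mice omitted, the 1 being without FeSO4/DEX mouse 1. For the difference between both DEX responses, 1 of the 10 was higher with DESeq2, library size alone or no filter, and 0 to 1 with single mice omitted, the 1 being without FeSO4/PBS mouse 1. There 1 was lower with library size alone or the LFC limit, and 1 to 3 with single mice omitted. Among all tested genes library size alone gave 575 higher and 327 lower for this difference, and 2.14% and 2% met the limit. Of the others 5 were higher without the filter and 1 to 4 with single mice omitted, and 7 were lower with DESeq2, 10 without the filter and 2 to 9 with single mice omitted, the 9 being without FeSO4/PBS mouse 1. The log2 ratio of Hif1a to Epas1 differed by 0.473 in the mice given PBS second and by 0.396 in those given DEX second, where 3 mice against 3 cannot pass. Where no construction is named, the cause was not tested.

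With the replicate number as a block, which the check of the numbers did not bear out as a pairing, 6 of the 10 genes were higher and 1 lower after FeSO4 with PBS, and no call of the 10 genes changed in any comparison. Of the other named genes Elob (LFC 0.42, edgeR FDR 0.0575) and Plin2 after DEX in NaCl mice lost their call, and Pdgfb after FeSO4 with DEX and Bhlhe41 in the difference gained one.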
